A study of Homo sapiens with 8 samples.

Results

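The genes described are the 8 m6A writer genes METTL3, METTL14, WTAP, VIRMA, RBM15, RBM15B, ZC3H13 and CBLL1 and the 2 m6A eraser genes FTO and ALKBH5. They were taken by gene name from a table of m6A changes between parental and CSTF2-knockout liver cancer cells, an older symbol such as KIAA1429 for VIRMA being allowed, although 0 entries needed one. All 10 members were listed in HUH7, among 10447 genes, and 8 of the 10 were listed in PLC/PRF/5, with 16 of 9516 peaks. METTL3 and FTO were not listed in PLC/PRF/5.

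N6-methyladenosine (m6A) is the most abundant internal modification of mRNA. It is placed in the nucleus by a complex whose catalytic core is a dimer of METTL3, which carries the active site, and METTL14, which helps hold the RNA. The accessory subunits WTAP, VIRMA, RBM15, RBM15B, ZC3H13 and CBLL1 bring the core to nuclear speckles and to chosen stretches of RNA, and FTO and ALKBH5 are oxygenases that remove the methyl group. The mRNAs of such enzymes can themselves be methylated. The values below are m6A changes listed for these genes' own transcripts, not the amount or activity of the proteins. Whether the values were corrected for transcript amount with the input libraries is not given in the sources used here.

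HUH7 and PLC/PRF/5 are established human lines of hepatocellular carcinoma. In each line parental cells served as the control (CON) for cells whose CSTF2, a subunit of the factor that helps cleave pre-mRNA at the 3′ end, had been knocked out with CRISPR-Cas9 (CKO), and each genotype gave 1 immunoprecipitate (IP) made with an m6A antibody and 1 input library. The 8 libraries thus formed 8 groups of 1, without replicates, and no group received another treatment named in the labels. The labels do not say whether the knockout cells were 1 clone or a pool.

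The values are log2 fold changes per gene (HUH7) or per peak (PLC/PRF/5), a peak being a stretch of RNA enriched by the antibody. The deposit names the comparison as control against knockout, once for both lines, but the file headers do not say which genotype is the numerator. Signs are therefore given as deposited, with no direction toward either genotype. Comparisons of signs between the lines rest on the assumption that both columns run the same way, as their shared name would have it. Without replicates, read counts or p-values, no value has an error and neighbouring values in any ranking below cannot be told apart. The data are changes, not levels, so neither the cell type nor the knockout was checked with them. CSTF2 was not listed in HUH7 and had 1 PLC/PRF/5 peak at -0.50 in the authors' deposited table. The PLC/PRF/5 column filled its range evenly, with between 599 and 655 peaks in each of 15 unit-wide bins from -2 to 13. Whether the PLC/PRF/5 values belong to the gene names beside them was not tested, and each PLC/PRF/5 value below is given as the table pairs it. The HUH7 column had a set of repeated values, each shared by 10 or more genes to 6 decimals, which touches 1 member.

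In HUH7 the writers and erasers had values on both sides of 0, and most lay within 1 of it, as did most genes of the column. Of the 10 genes, 7 were positive and 3 negative in the authors' deposited table, with a median of 0.44 against 0.20 over all genes of the column. Over all HUH7 genes 60.8% were positive. A value at least 1 away from 0, that is a 2-fold difference or more, was found for 3 of the 10 members, against 36.9% of all HUH7 genes. RBM15 and VIRMA were the 2 on the positive side, where 22.2% of all genes lay, and ZC3H13 was the 1 on the negative side, with 14.6% of all genes. Without repeated values the count was 2 of 9 members, against 27.8% of genes. The members' counts are near the background of the column.

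Both subunits of the catalytic core had small positive values. METTL3, the subunit with the active site (chromosome 14, 21498138 to 21511340, RefSeq gene span on GRCh38.p14), had 0.42 in HUH7 in the authors' deposited table, a 1.34-fold difference. Its partner METTL14 (chromosome 4, 118685392 to 118715430) had 0.27, a 1.20-fold difference, in the authors' deposited table. The values were 0.16 apart, and 6.93% of HUH7 genes had values between them. They stood at percentiles 60.5 and 53.6 of the column, close to its middle.

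The accessory writer subunits were more spread out. WTAP, the subunit that ties the core to the rest of the complex (chromosome 6, 159726693 to 159756319), had -0.15 in HUH7 in the authors' deposited table, the writer value closest to 0. VIRMA, the large scaffold subunit (chromosome 8), had 1.16, or 2.23-fold, in the authors' deposited table. CBLL1, a RING-finger protein also called HAKAI (chromosome 7, 107744142 to 107761667), had -0.62 in the authors' deposited table, at percentile 19.5 of the column. VIRMA thus lay just past the threshold of 1, while WTAP and CBLL1 were small and negative.

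The RNA-binding paralogues RBM15 and RBM15B, which guide the complex to RNA, were both positive in HUH7. RBM15 (chromosome 1, 110339377 to 110346677) had 2.08, or 4.23-fold, in the authors' deposited table, at percentile 89.0 of the column. RBM15B (chromosome 3, 51391285 to 51397908) had 0.83, or 1.78-fold, in the authors' deposited table, at percentile 74.0. The RBM15 value was the largest positive one of the 10 members. Among the 9132 HUH7 genes without a repeated value, 9.36% lay as far from 0 as RBM15 or farther, so its size is not rare in the column.

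ZC3H13, a zinc finger subunit that helps keep the complex in the nucleus (chromosome 13, 45954465 to 46052746), had -8.27 in HUH7 in the authors' deposited table, a nominal 308-fold difference. It was the lowest of the 10 values by a wide margin. The same value to 6 decimals was held by 103 genes, and it is 1 of 8 negative repeated values in the column. As linear folds these 8 values stand to each other as the whole numbers from 3 to 10, and that of ZC3H13 is the step at 5. Each step held between 85 and 110 genes, and negative repeated values made up 7.89% of the column. The value of ZC3H13 therefore gives its sign and its step, but not a measured amount that is its own, and what gave rise to the steps was not tested.

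Both erasers were positive and small in HUH7. FTO, the demethylase first known for its tie to body weight (chromosome 16, 53703963 to 54121941), had 0.46, or 1.37-fold, in the authors' deposited table. ALKBH5, the other m6A demethylase (chromosome 17, 18183828 to 18209954), had 0.67, or 1.59-fold, in the authors' deposited table. The erasers differed by 0.21 and stood at percentiles 62.2 and 69.8 of the column. Their values lay between that of METTL3 and that of RBM15B, so erasers and writers were not separated by value.

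**Figure D1:**
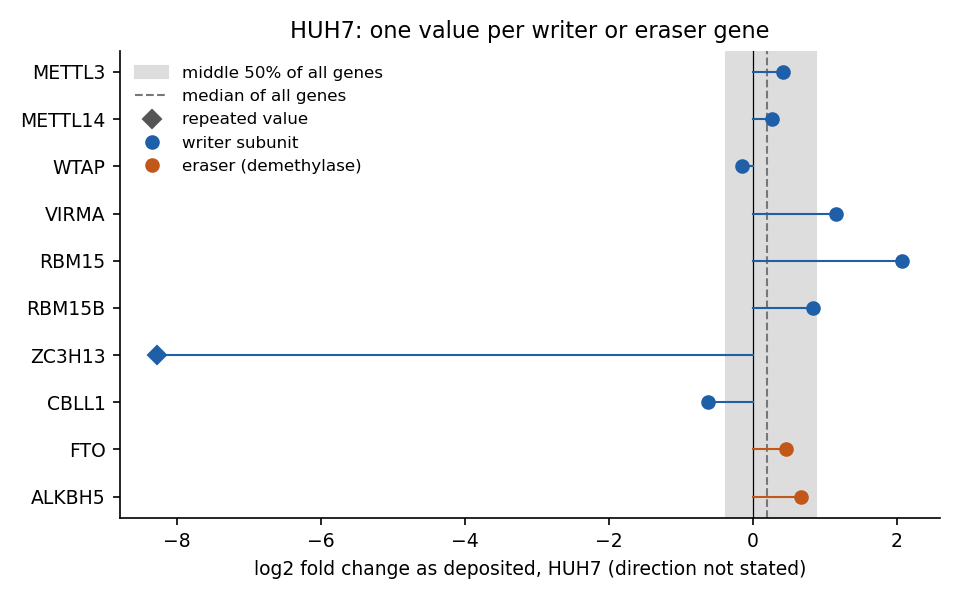
Deposited log2 fold change (horizontal axis) of each writer (blue) and eraser (orange) in HUH7, 1 value per gene with no replicate; the grey band is the middle 50% of all 10447 genes and the dashed line their median, 0.20. RBM15 at 2.08 and the repeated value of ZC3H13 at -8.27 (diamond) lie farthest from the band.

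In PLC/PRF/5 the peaks of the listed members were again of both signs, from -0.69 to 12.82. Of 16 member peaks, 11 were positive and 5 negative in the authors' deposited table, that is 68.8% positive against 86.0% of all peaks in the column. A distance of at least 1 from 0 was seen for 10 of the 16 member peaks, or 62.5%, against 87.1% of all peaks. All 10 were positive, a class that held 79.7% of all peaks, and 0 were at -1 or below, where 7.31% of all peaks lay. The other 6 member peaks lay within 1 of 0, or 37.5% against 12.9% of all peaks. The median was 5.77 over the member peaks and 5.44 over all peaks. Peaks of the same gene share their transcript and libraries and are not replicates, and ZC3H13 alone gave 6 of the 16 (37.5%). Without the ZC3H13 peaks, a setting chosen after the data were seen, 6 of 10 peaks were positive, 5 reached the threshold and the median was 2.80.

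METTL14 had 3 PLC/PRF/5 peaks, at -0.04, 0.95 and 12.82 in the authors' deposited table. The first pair lay within 1 of 0, whereas the last stood at percentile 98.9 of all peaks. Their range of 12.86 compares with a median range of 7.57 over the 468 genes with 3 peaks and lies above their interquartile range, 5.12 to 10.33. METTL3, its partner in the core, was not listed, so the core could be followed in HUH7 but only by METTL14 in PLC/PRF/5.

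ZC3H13 had 6 PLC/PRF/5 peaks, at -0.08, 5.11, 6.44, 7.56, 7.79 and 11.81 in the authors' deposited table. Of these, 5 were positive and 4 lay between 5 and 8. Their range of 11.89 compares with a median range of 10.97 over the 51 genes with 6 peaks (interquartile range 9.28 to 12.54). Only 2.36% of listed genes had 6 or more peaks, and the most for a gene was 26.

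WTAP had 2 PLC/PRF/5 peaks, at -0.69 and 4.65 in the authors' deposited table. The range of 5.34 lay inside the interquartile range, 1.95 to 7.51, of the 1273 genes with 2 peaks. WTAP, METTL14 and ZC3H13 were the 3 of 8 listed members with more than 1 peak, against 39.5% of all listed genes. All 3 had peaks of both signs, as did 33.2% of all genes with 2 or more peaks. That share was not matched for peak number. Of its 2165 genes, 1273 had 2 peaks, whereas METTL14 had 3 and ZC3H13 had 6. The only negative peak of METTL14 was -0.04 and that of ZC3H13 was -0.08, so near 0 that, without errors, their sign is uncertain.

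The other 5 members in PLC/PRF/5 had 1 peak each. RBM15 had 8.99, CBLL1 7.90 and ALKBH5 6.48 in the authors' deposited table, all positive and above the column's median. RBM15B had -0.67 and VIRMA -0.36 in the authors' deposited table. These negative peaks lay close to 0, and the lowest of all member peaks was -0.69, in WTAP. Since the column is filled evenly from -2 to 13, a value near 9 is no rarer than one near 5 or near 0, and the order of the members says little about any of them.

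**Figure D2:**
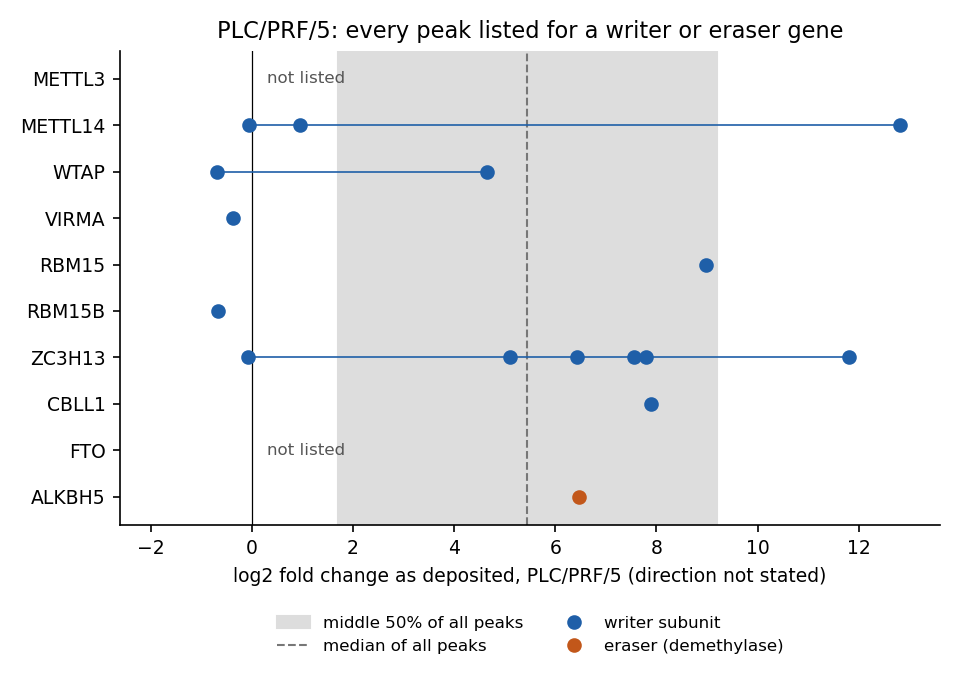
Every PLC/PRF/5 peak of a writer (blue) or eraser (orange), as deposited log2 fold change (horizontal axis), with peaks of a gene joined by a line; the grey band is the middle 50% of all 9516 peaks and the dashed line their median, 5.44. METTL14, WTAP and ZC3H13 have peaks on both sides of 0, and METTL3 and FTO are not listed.

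Members were listed in PLC/PRF/5 more often than HUH7 genes in general, at 80% (8 of 10) against 37.6%, a difference that was not tested. The members listed had a mean of 2.0 peaks, against 1.74 for all listed genes. Among HUH7 genes the share listed in PLC/PRF/5 went up with gene length, from 24.6% in the quartile of shortest genes to 49.6% in that of the longest. ZC3H13, at 98282 bases, and FTO, at 417979 bases, were the members in the quartile of longest genes, and the former had 6 peaks and the latter none listed. Of the 184 HUH7 genes as long as FTO or longer, 35.9% were listed in PLC/PRF/5. RBM15 and RBM15B, the shortest members at 7301 and 6624 bases, had 1 peak each. Absence from the list is not a value of 0, since the sources used here do not give the criteria for listing a peak.

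Set side by side, the lines had the same sign for 3 of the 8 genes listed in both and opposite signs for 5, with the median of a gene's peaks taken in PLC/PRF/5. Over all genes listed in both lines the same sign was found for 56.8%. Both columns were mostly positive (60.8% of HUH7 genes and 86.0% of PLC/PRF/5 peaks). The 56.8% was not set against the share that such columns would give without any link between the lines. If the columns run in opposite directions, despite the shared name of the comparison, the counts turn to 5 of 8 with the same sign, against 43.2% of all shared genes. In the authors' deposited table RBM15 was positive in both lines, with 2.08 in HUH7 and 8.99 in PLC/PRF/5. ALKBH5 was likewise positive in both, with 0.67 and 6.48 in the authors' deposited table. METTL14 had 0.27 in HUH7 and a median of 0.95 over 3 PLC/PRF/5 peaks, of which the lowest was just below 0.

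By these medians, and with the columns read in the same direction, the other 5 genes differed in sign. In the authors' deposited table CBLL1 was negative in HUH7 (-0.62) and positive in PLC/PRF/5 (7.90). RBM15B had 0.83 in HUH7 and -0.67 in PLC/PRF/5, and VIRMA had 1.16 and -0.36, in the authors' deposited table. ZC3H13 joined its repeated HUH7 value of -8.27 to a median of 7.00 in PLC/PRF/5, and WTAP an HUH7 value of -0.15 to a median of 1.98. Of the 5 genes, WTAP and ZC3H13 each had 1 PLC/PRF/5 peak of the HUH7 sign, whereas the single peaks of CBLL1, RBM15B and VIRMA had the opposite one. The paralogues RBM15 and RBM15B, of the same sign in HUH7, were thus of opposite sign in PLC/PRF/5. With 1 comparison per line, a difference between the lines cannot be told apart from a difference between libraries.

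**Figure D3:**
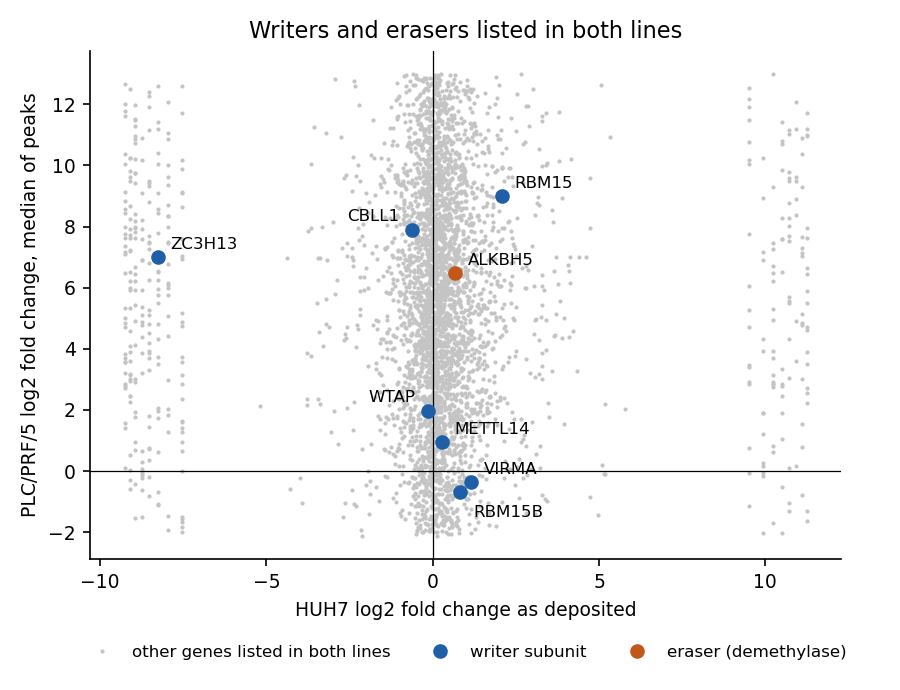
HUH7 value (horizontal axis, log2 fold change) against the median of PLC/PRF/5 peaks (vertical axis, log2 fold change) for the 8 members listed in both lines, over all other shared genes in grey. RBM15, ALKBH5 and METTL14 lie where both are positive, RBM15B and VIRMA below 0 in PLC/PRF/5 only, and the grey columns at the far left and right are repeated HUH7 values.

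Some members share their gene span with another gene. WTAP lies wholly within the RefSeq span of SOD2, the mitochondrial superoxide dismutase gene, which had -0.30 in HUH7 in the authors' deposited table and 4 peaks in PLC/PRF/5. RBM15B shares 2042 bases with DCAF1, a ubiquitin ligase subunit gene, which had 0.06 in HUH7 in the authors' deposited table and 2 peaks in PLC/PRF/5. METTL3 shares 1033 bases with TOX4, which was listed in neither line. FTO overlaps the long noncoding RNA genes LOC124903691, LOC105371271 and FTO-IT1, and CBLL1 shares 440 bases with CBLL1-AS1, all of them listed in neither line. How reads and peaks in shared spans were given to a gene is not stated. The values of METTL3, WTAP, RBM15B, CBLL1 and FTO are uncertain to that extent.

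Genes that read or assist the mark gave a similar mixture in HUH7. Of 15 reader genes, whose proteins bind methylated RNA, 13 were listed, 7 positive and 6 negative, with a median of 0.05, and 4 of the 13 reached an absolute value of 1 (30.8%, against 36.9% of all HUH7 genes). YTHDF1, a cytoplasmic reader of the YTH family, had 10.50 in the authors' deposited table, a repeated value shared by 67 genes. FMR1, the fragile X protein gene, had 4.13 in the authors' deposited table. YTHDC2, a reader with a helicase domain, had -1.92 and IGF2BP3, a reader linked to mRNA stability, had -1.36 in the authors' deposited table. FMR1 and YTHDF1, the latter through a repeated value, thus lay above RBM15, the highest member, which itself stood at percentile 89.0 of the column. The median of the readers was below that of the writers and erasers. Positive values made up 53.8% of the listed readers, against 60.8% of all HUH7 genes.

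Methyltransferases outside the main complex, taken with a partner protein, had 3 positive values and 1 negative in HUH7. Positive values thus made up 75%, against 60.8% of all HUH7 genes. Of the 4 values, 1 reached an absolute value of 1 (25%, against 36.9% of all HUH7 genes). The list of 6 held METTL16, METTL5 with its partner TRMT112, ZCCHC4, the cap enzyme PCIF1 and METTL4, of which 4 were listed, with a median of 0.54. TRMT112 had 1.30 and PCIF1 0.97 in the authors' deposited table. METTL16, which methylates U6 RNA and the MAT2A mRNA, had 0.11 and METTL4 -0.47 in the authors' deposited table. In PLC/PRF/5 METTL16 had 11.95 and METTL4 11.48, while METTL5 had peaks at -1.79 and 4.09 in the authors' deposited table.

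Genes of the S-adenosylmethionine cycle, which makes the methyl donor, had 5 positive and 2 negative values in HUH7 with a median of 0.20. Positive values made up 71.4%, against 60.8% of all HUH7 genes. Of the 7 genes, 1 reached an absolute value of 1 (14.3%, against 36.9% of all HUH7 genes). AHCYL2 had 0.95 and MTRR, which keeps methionine synthase active, 0.60 in the authors' deposited table. MTR, methionine synthase, had -0.52 in the authors' deposited table. MAT1A, the liver form of the enzyme that makes S-adenosylmethionine, had -7.53 in the authors' deposited table, a repeated value shared by 102 genes. Like ZC3H13, MAT1A thus stood far from its list through a repeated value.

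The exon junction complex, which is deposited at splice junctions and is known to keep m6A away from them, had 6 of 9 genes listed in HUH7, 4 positive and 2 negative. Positive values made up 66.7%, against 60.8% of all HUH7 genes. The median of the complex was 0.12, and 0 of the 6 reached an absolute value of 1, against 36.9% of all HUH7 genes. ACIN1 had 0.48 and EIF4A3, the core helicase, 0.33 in the authors' deposited table. PNN had -0.39 and CASC3 -0.30 in the authors' deposited table. Enzymes and readers of the other RNA marks m5C and m1A had 9 positive and 3 negative values in HUH7, with a median of 0.52. Positive values made up 75%, against 60.8% of all HUH7 genes. Of these 12 genes, 3 reached an absolute value of 1 (25%, against 36.9% of all HUH7 genes). TRMT61B, a mitochondrial m1A enzyme, had 1.39 and TRDMT1 1.01, at the positive end, in the authors' deposited table. TRMT6 had -1.18 and NSUN4 -0.80, at the negative end, in the authors' deposited table.

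In PLC/PRF/5 all 5 related lists had more positive than negative peaks, as did the column. Readers had 15 positive and 6 negative peaks in 11 genes, with a median of 6.05. Exon junction genes had 9 positive and 2 negative peaks in 4 genes, with a median of 6.88. The m5C and m1A genes had 5 positive and 2 negative peaks, with a median of 3.60. The S-adenosylmethionine genes had 4 positive and 1 negative, with a median of 2.70. The methyltransferases outside the complex had 3 positive and 1 negative, with a median of 7.79. The share of positive peaks ran from 71.4% for readers to 81.8% for the exon junction complex, with 68.8% for the writers and erasers together and 86.0% for all peaks of the column, and these shares were not tested against each other.

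**Figure D4:**
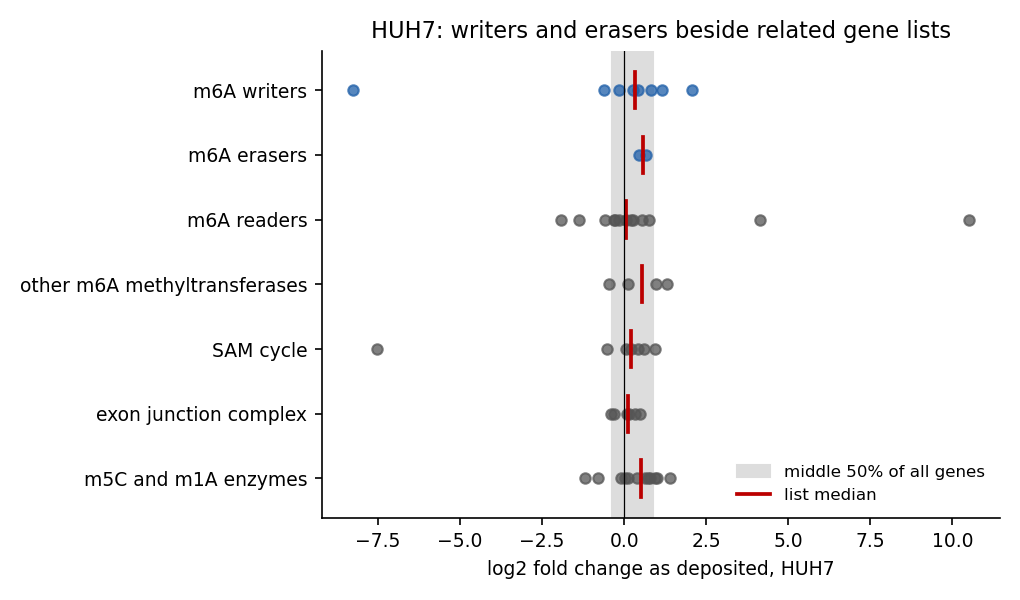
HUH7 values (horizontal axis, log2 fold change as deposited) of writers and erasers (blue) and of 5 related lists (grey), 1 point per listed gene, with each list's median in red and the middle 50% of all genes as the grey band. Every list median lies inside the band, between 0.05 and 0.57, and the points beyond 7 in size are the repeated values of ZC3H13, YTHDF1 and MAT1A.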

How the data were processed

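MeRIP-seq libraries (IP and input, parental and CSTF2-knockout) came from HUH7 and PLC/PRF/5, 1 library per group. Trizol-extracted RNA was, per the labels' protocols, selected on oligo(dT) beads, cut to short fragments and precipitated with an m6A antibody. Per the submitters' processing notes, FastQC 0.12.0 and the build hg38 were used. For the aligner, peak caller, differential test and filters, nothing is given in the sources used here.

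The authors deposited log2 fold changes, 1 column per line beside gene names. Read counts, depth and p-values were not analysed here. With 1 library per group no test between genotypes was made, and counts and medians are given beside those of the whole column.

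Names were matched to symbols, or to synonyms of a single gene, in RefSeq (GRCh38.p14), for 10276 of 10447 HUH7 and 5124 of 5477 PLC/PRF/5 names, the latter forming 5475 genes. Percentiles are shares of a column's values below a value. Analyses used Python 3.11.15, pandas 2.3.3 and numpy 2.4.6, and the counting was tested on simulated data. The members and lists were chosen with earlier results of these data known. Named from each related list were the pair of most positive and the pair of most negative HUH7 values, with all 10 members and CSTF2. METTL5, listed only in PLC/PRF/5, and the genes that overlap a member were named outside this rule. A gene of the S-adenosylmethionine list is not reported here, and the list's counts are without it. Alternatives were other size thresholds, subtraction of the column median, repeated values left out, names as given, means in place of medians and other values per gene in PLC/PRF/5.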

Additional observations from a re-analysis of the deposited data

Results flagged for a closer look

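CBLL1, RBM15B and VIRMA each had an HUH7 value and a single PLC/PRF/5 peak of opposite sign. Opposite signs were common in the columns as deposited, since only 56.8% of all genes listed in both lines had the same sign by the median of peaks. That share was not set against the one that columns of mostly positive values would give without any link between the lines. The HUH7 values were -0.62 for CBLL1, 0.83 for RBM15B and 1.16 for VIRMA in the authors' deposited table. The PLC/PRF/5 peaks were at 7.90, -0.67 and -0.36 in the same order in the authors' deposited table. With 1 column turned, all 3 would have the same sign in both lines. The deposit names the comparison in the same order for both lines but does not state the numerator. These differences between the lines were not tested, since each line gave 1 comparison without replicates.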

How the results depend on the processing

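Of 31 values under alternative settings, 20 were alike to those reported (equal, or for counts within 1.5 times), 10 moved and 1 changed sign. The 3 HUH7 members past the threshold became 2 at an absolute log2 value of 2. The count was also 2 with the column median subtracted, where VIRMA had 0.96, and without repeated values. Subtracting the column median took positive PLC/PRF/5 member peaks from 11 to 8, and member peaks past the threshold from 10 to 14. These changes count as alike by that rule. In HUH7, 6 members reached a threshold of 1.5-fold in place of 3 at an absolute log2 value of 1. Without repeated values the share of all HUH7 genes past 1 was 27.8%. Shares of all genes or peaks were not counted at 1.5-fold, at 2 or with the column median subtracted. The member counts under those settings therefore have no background beside them. The HUH7 median over members, 0.44, became 0.24 with the column median subtracted and 0.46 without repeated values, while the mean was -0.32, since it contains the value of ZC3H13. In PLC/PRF/5 the median over member peaks, 5.77, became 0.34 with the column median subtracted, 4.91 as a mean and 4.23 as a median over genes. Without the ZC3H13 peaks, a setting added after the data were seen, 5 peaks reached the threshold, 6 were positive and the median was 2.80. The count of members with the same sign in both lines was 3 under each of the 4 settings planned for it, but not always of the same genes. Leaving out repeated values also removed ZC3H13, so fewer genes were compared there. With the column medians subtracted, METTL14 became opposite (0.07 in HUH7, -4.48 in PLC/PRF/5) and WTAP became the same (-0.35 and -3.46). With 1 column turned, a setting also added after the data were seen, the count was 5. No paired analysis was possible because each group held 1 library and the values come from no test, and for the same reason no replicate could be left out. The limits are the unstated numerator of the ratio, the unknown depth and the unstated correction for input. A further limit is the evenly filled PLC/PRF/5 column, whose pairing with gene names was not tested.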
